A study of Mus musculus with 9 samples.

Results

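Of the 9757 peaks of the retinoic acid receptor RARA, 4527 lay in DNA that a reporter library held and at none of the enhancers that the reporter listed. They are called silent RARA peaks here, a name that stands for absence from the lists and not for a measured lack of activity. They were selected on the deposited calls alone. A RARA peak belonged if it shared at least 1 bp with a region found in the plasmid library and no base with a region of the 3 enhancer lists. Another 895 RARA peaks lay in library DNA at a listed enhancer, and 4335 lay outside the library, of which 2 touched an enhancer.

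All samples were E14 mouse embryonic stem cells. Reporter activity was measured by FAIRE-STARR-seq, an assay that places pieces of open chromatin in a plasmid behind a promoter, so that a fragment with enhancer activity raises the amount of its own transcript. The library (1 sample) was built from accessible DNA of cells given retinoic acid (RA) for 4 h. Reporter RNA came from 3 samples grown in LIF (leukemia inhibitory factor, which sustains pluripotency) and from 3 samples grown with no LIF and exposed to RA at 1 µM during 4 h. RARA was mapped by ChIP-seq in 1 library from cells under the same RA treatment without LIF, next to 1 input library. The labels describe the antibody as a polyclonal RAR antibody while naming the sample RARA. The lists name enhancers in cells with LIF over the library (mESC enhancers), enhancers stronger with LIF than with RA (LIF-dependent) and enhancers stronger with RA than with LIF (RA-induced). None of the lists compared RA with the library, although RARA was mapped under RA. A fragment active under RA could therefore be absent from all of them. The enhancer lists came from merged replicates and the ChIP from a single library, so the values below have no replicate error. Regions of 1 library are not replicates of a condition, and no difference was tested. Intervals are 95% Wilson intervals on shares and order-statistic intervals on medians, and they cover counting error over regions alone.

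RARA is a nuclear receptor that binds DNA with a partner of the RXR family, at response elements made of repeats of a short core sequence. Without ligand the pair is known to recruit co-repressors, and RA binding exchanges these for co-activators. In embryonic stem cells RA drives exit from pluripotency, with genes of the Hox clusters and of RA metabolism among the well-known direct targets. A plasmid reporter reads a fragment outside its chromosomal place, apart from its neighbours and its own promoter.

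Most RARA peaks that the library covered were at no listed enhancer. The share was 83.5% of the 5422 RARA peaks in library DNA (82.5 to 84.5%). Of the rest, 863 touched an mESC enhancer, 118 an RA-induced enhancer and 100 a LIF-dependent enhancer. Counted over the library instead, 2.57% of all 186959 library regions overlapped an enhancer of any list, against 17.7% (16.7 to 18.7%) of the 5488 library regions with a RARA peak and 2.11% of those without one. The rule used these calls, so the shares describe the choice of members and support nothing further. The silent peaks touched 4587 library regions, and 40 of these held several silent peaks.

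RARA was enriched over a wide range at the silent peaks. The fold enrichment at the summit, the authors' own value for each peak, had a median of 3.14 (3.14 to 3.17), quartiles of 2.74 and 4.07, a 90th percentile of 6.13 and a range from 1.48 to 98.7. At enhancers in the library the median was 3.41 (3.31 to 3.52), with quartiles of 2.79 and 5.19. Outside the library it was 2.95 (2.94 to 3.01), with quartiles of 2.58 and 3.62. The classes overlapped over nearly their whole range. Silent peaks and those at enhancers parted mainly in the upper tail, where the 90th percentile was 9.19 at enhancers, 6.13 at silent peaks and 4.83 outside the library. The silent median minus that at enhancers was -0.277. That difference was -0.0955 when peaks within 5 kb of an enhancer were counted with the enhancers, -0.169 when those within 500 bp were, and -0.109 when each summit of a peak was counted. Fold values of weak peaks were coarse: the 10 most frequent values covered 24.4% of the silent peaks. Peaks of higher fold were also wider, and a wider peak can touch an enhancer more readily. The part of width in the fold difference between silent peaks and those at enhancers was not tested.

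**Figure D1:**
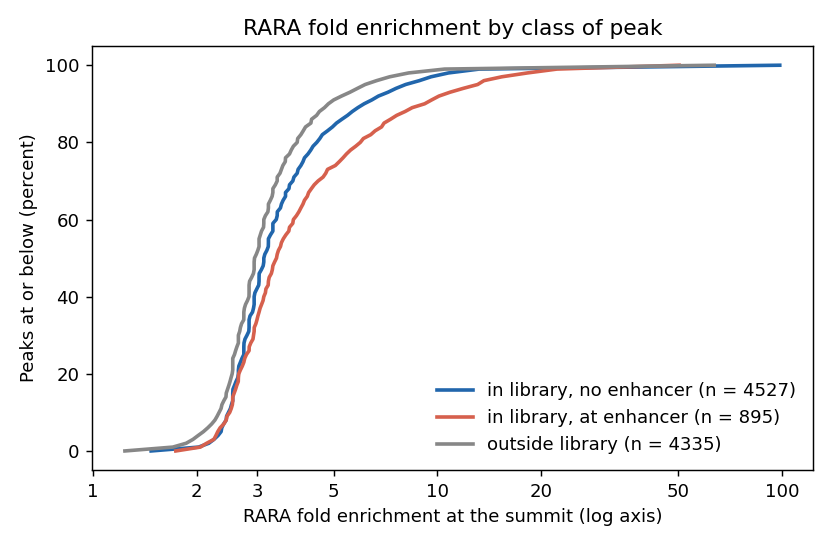
Cumulative share of peaks (percent, vertical axis) against the authors' RARA fold enrichment at the summit (log axis) for silent peaks, RARA peaks at a listed enhancer and RARA peaks outside the library. The curves of silent peaks and of peaks at enhancers start together (1st percentiles 2.03 and 2.05) and part toward their medians of 3.14 and 3.41, while the curve outside the library lies lower from the start (1.71) and has a median of 2.95.

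The top decile of all RARA peaks by fold held 11.4% of the silent peaks (10.5 to 12.4%), 21.1% of those at enhancers (18.6 to 23.9%) and 6.25% of those outside the library (5.57 to 7.01%). Of its 976 peaks, 516 were silent (52.9%, 49.7 to 56.0%), 189 were at an enhancer in the library and 271 lay outside it. Of all RARA peaks, 46.4% were silent. In the lowest decile, 339 of 981 were silent (34.6%), 66 were at an enhancer and 576 lay outside the library. The silent share of a decile thus ran from 34.6 to 52.9%, while the share outside the library ran from 58.7 to 27.8%. Among peaks in library DNA, the silent share lay between 82.0 and 88.6% in deciles 1 to 9 and was 73.2% (69.8 to 76.3%) in the top decile. Of the 100 strongest RARA peaks in the list, 41 were silent, a lower share than the 46.4% of all RARA peaks, 38 were at an enhancer and 21 lay outside the library.

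**Figure D2:**
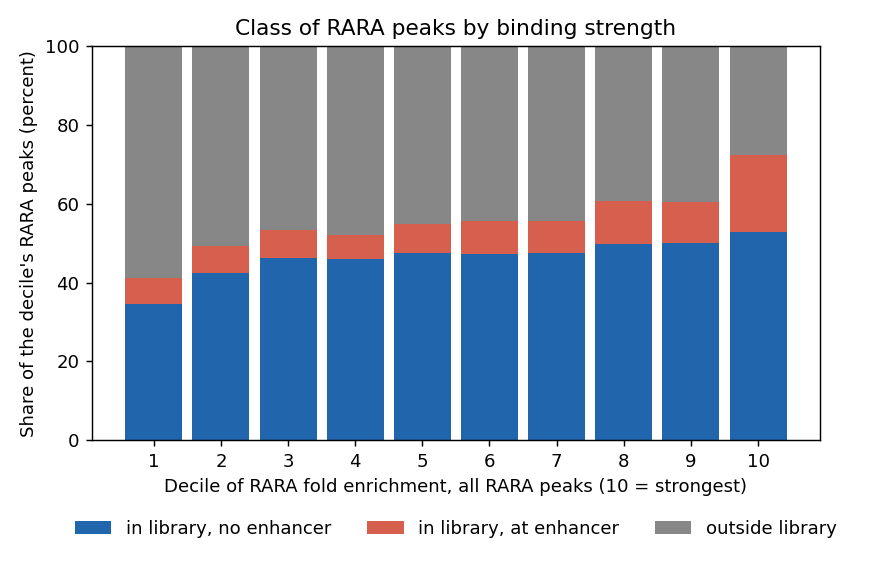
Share (percent) of RARA peaks that were silent, at a listed enhancer in the library, or outside the library, in each decile of RARA fold enrichment over all 9757 peaks; the outside class includes the 2 peaks at an enhancer. The silent share is 34.6% in decile 1 and 52.9% in decile 10.

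The 10 silent peaks of highest RARA fold ran from 31.1 to 98.7-fold and from 590 to 1955 bp in width. The strongest of them, chr3:152395775-152397306, had a fold of 98.7 and 2 summits. The library held 214 bp of it, chr3:152396083-152396296, or 14.0% of the peak, and the RARA summit lay 417 bp beyond the edge of that region. The second, chr10:68467540-68468522, had a fold of 52.9 and 2 summits. The library region covered 18.5% of this peak, and the RARA summit lay 123 bp beyond the edge of that region. At these sites the DNA under the RARA summit used here was therefore not in the listed library. The other summit of each peak was not checked.

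In the other 8 of the 10 the RARA summit fell inside a library region. The peak chr4:150746826-150747634 had a fold of 42.7, lay 458065 bp from the nearest listed enhancer and was in library DNA of 3.92-fold enrichment. At chr3:88083680-88084501 the RARA fold was 41.7 and the library summit lay 8 bp from the RARA summit, in a library region of low enrichment (2.72-fold). The peak chr1:184430890-184431479 had a fold of 41.2, with library and RARA summits 72 bp apart. At chr9:103274447-103275431, a peak of 3 summits, the fold was 37.0. The library regions of all 10 had folds from 2.72 to 8.41, and 7 of these were above the median of all library regions (5.48). The median over the library regions of all silent peaks was higher, at 7.62.

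Some of these strong silent peaks had an enhancer close by. On chromosome 6, the peak chr6:143088784-143089858 (33.5-fold) had its summit 18 bp from the library summit and lay 755 bp from an mESC enhancer, chr6:143090614-143091080, whose reporter fold over the library was 20.3. Another on that chromosome, chr6:140554171-140555141, had a RARA fold of 35.7, and an mESC enhancer lay 1946 bp away. An mESC enhancer also lay 2284 bp from the peak chr3:88083680-88084501 (41.7-fold). At chr2:101950364-101951609 (34.5-fold) the nearest enhancer was farther off, at 10095 bp. The last of the 10, chr5:118894537-118896491, was the widest at 1955 bp, with a fold of 31.1 and 4 summits, and the library held 94.1% of it. For all 10 the nearest enhancer was an mESC enhancer, within 5 kb for 3 of them.

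Library coverage of the silent peaks was uneven. The median share of a silent peak that library regions covered was 86.9%, 1768 peaks (39.1%) were covered whole, and 938 (20.7%, 19.6 to 21.9%) were covered by less than 50%. At enhancers 50.4% were covered whole and 9.94% (8.15 to 12.1%) by less than 50%. The RARA summit itself lay in a library region in 3706 silent peaks (81.9%, 80.7 to 83.0%), against 92.2% (90.2 to 93.8%) of RARA peaks at enhancers. The rule bears on both contrasts, since peaks at enhancers had to reach DNA called in the reporter as well as library DNA. The part of the rule in them was not tested. In the 821 silent peaks whose summit was not covered, it lay a median of 68 bp beyond the library region. Their RARA fold had a median of 2.94, against 3.17 where the summit was covered. The share of the peak covered did not rise with RARA fold throughout. Its median was 89.8% in the lowest quintile of RARA fold, 96.0% in the middle one and 72.4% in the highest.

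The distance from a RARA summit to the nearest library summit is bounded by the rule, since each silent peak overlaps a library region, and is given as a description. Its median was 98 bp (94 to 102) in silent peaks and 75 bp (68 to 83) in RARA peaks at enhancers. Within 50 bp of a library summit were 30.1% of silent peaks (28.8 to 31.4%) and 35.6% of those at enhancers (32.6 to 38.8%). Across the silent peaks the distance was shorter where RARA was stronger: its median was 130 bp in the lowest quintile of RARA fold, 94.5 bp in the middle one and 74 bp in the highest. By quintile of RARA fold over all peaks in the library, from the lowest, the medians were 130, 112, 94, 84 and 74 bp for silent peaks and 106, 95, 95, 68 and 50 bp at enhancers, so that the silent median was the longer in 4 quintiles and 1 bp shorter in the middle one. Within each quintile of library fold the silent median was the longer, with 90 against 67 bp in the middle quintile and 108 against 75 bp in the highest.

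**Figure D3:**
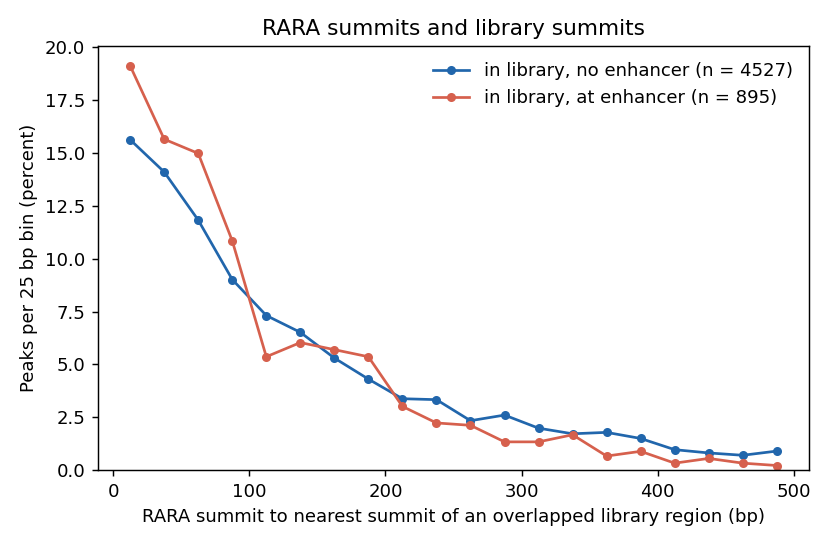
Share of peaks (percent, per bin of 25 bp) by the distance from the RARA summit to the nearest summit of an overlapped library region, for silent RARA peaks and RARA peaks at a listed enhancer; distances of 500 bp or more (3.95% and 2.23%) are not drawn. Both curves are highest in the first bin, at 15.6% for silent peaks and 19.1% at enhancers.

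Silent peaks lay in library regions of lower enrichment than RARA peaks at enhancers did. The fold enrichment of the overlapped library region, the authors' value, had a median of 7.62 (7.43 to 7.78) for silent peaks and 12.5 (12.0 to 13.1) at enhancers. Library regions with neither a RARA peak nor an enhancer had 5.33. The same regions had median widths of 452, 564 and 321 bp. Across the 4527 silent peaks the RARA fold and the library fold had a Spearman rho of -0.0033, a description of peaks that share 1 library on each side. The silent share of RARA peaks was 95.9% (94.5 to 96.9%) in the lowest quintile of library fold and 62.5% (59.6 to 65.3%) in the highest. mESC enhancers were themselves called over the library, and the part of library enrichment in the absence of a call was not tested.

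Library fold and RARA fold were then crossed. Where both were in their lowest quintile, 260 of 269 peaks were silent (96.7%). Where both were in the highest, 95 of 192 were silent (49.5%, 42.5 to 56.5%). With the library in its highest quintile and RARA in the lowest, the share was 67.4% (61.2 to 73.0%). In each of the 5 quintiles of library fold the silent share was lowest for the strongest RARA quintile.

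**Figure D4:**
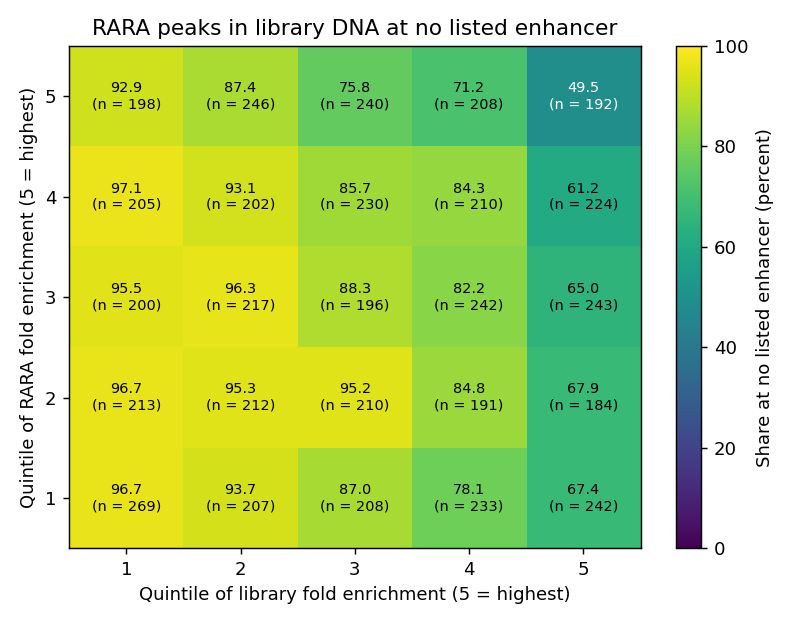
Share (percent, colour and number) of RARA peaks in library DNA at no listed enhancer, by quintile of library fold enrichment (horizontal) and of RARA fold enrichment (vertical), with the number of peaks in each cell. Values run from 97.1% at low library fold to 49.5% where both folds are highest.

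The 95 silent peaks of highest quintile in both folds were set beside the 97 peaks at enhancers in that cell. Their median RARA fold was 6.17 against 7.01 and their median library fold 15.7 against 16.6. Several summits were found in 20 of the 95 and in 22 of the 97. The RARA summit was in library DNA in 85 of the 95 and in 96 of the 97, and its median distance to a library summit was 80 bp against 47 bp. The strongest of the 95, all chosen here after their values were seen, were chr12:3238377-3239032 with a RARA fold of 30.1 and a library fold of 13.7, chr11:101543233-101543789 with 19.2 and 14.7, and chr1:121201244-121202386 with 17.5 and 15.7. These peaks lay 187575, 50167 and 92867 bp from a listed enhancer.

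The 5 silent peaks in library DNA of highest fold had RARA folds from 2.55 to 11.3. The first, chr1:102076691-102076956, lay whole in the library region of the highest fold of all 186959 (52.0), with a RARA fold of 5.30 and summits 10 bp apart. On chromosome 8, chr8:15519787-15520109 had a library fold of 46.7, a RARA fold of 11.3 and summits 25 bp apart. The others were chr3:61963066-61963305 (library 34.8-fold, RARA 4.13-fold), chr13:3036392-3036544 (33.2 and 2.83) and chr2:69551037-69551420 (30.5 and 2.55). In the last of these the library covered 18.0% of the peak and not its summit. The nearest listed enhancer was at least 182540 bp away from each of the 5.

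Silent peaks were narrower and had fewer summits than RARA peaks at enhancers. The rule bears on this, since a wider peak has more bases with which to touch an enhancer. The part of the rule in these differences was not tested. Their median width was 270 bp (265 to 276), against 351 bp (333 to 369) at enhancers and 232 bp (228 to 235) outside the library. More than 1 summit was listed in 655 silent peaks (14.5%, 13.5 to 15.5%), in 21.6% (19.0 to 24.4%) of those at enhancers and in 9.48% (8.64 to 10.4%) of those outside the library. Width and RARA fold went together across the silent peaks (Spearman rho 0.494), and the share with several summits was 7.04% in the lowest quintile of RARA fold and 21.7% in the highest. The largest number of summits, 6, was found in chr13:23492600-23494080 (5.30-fold) and chr11:62418213-62419301 (2.64-fold). Peaks of 5 summits included chr1:120971718-120973947 (8.82-fold, 2230 bp, the widest silent peak), chr19:12085237-12086942 (8.43-fold) and chr11:68875741-68877135 (4.88-fold).

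An enhancer of any list lay within 1 kb of 206 silent peaks (4.55%, 3.98 to 5.20%), within 5 kb of 441 (9.74%, 8.91 to 10.6%) and within 50 kb of 1947 (43.0%, 41.6 to 44.5%). For the 177642 library regions with neither RARA nor an enhancer the shares were 0.907%, 3.11% and 27.8%. These regions hold no enhancer by definition, while 96 silent peaks shared their library region with one and made 95 of the 206 within 1 kb. Over the other 4431 silent peaks, a choice made after seeing the data, the shares were 2.51% (2.08 to 3.01%), 7.79% (7.03 to 8.61%) and 41.8% (40.3 to 43.2%). RARA peaks outside the library and at no enhancer, on chromosomes with a listed enhancer, had 4.15%, 10.7% and 37.1%. The median gap to the nearest enhancer was 64930 bp for silent peaks, 121447 bp for library regions with neither and 86428 bp for RARA peaks outside the library. Silent peaks had library regions of higher fold than the library regions with neither, and the part of that difference in the nearness was not tested.

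**Figure D5:**
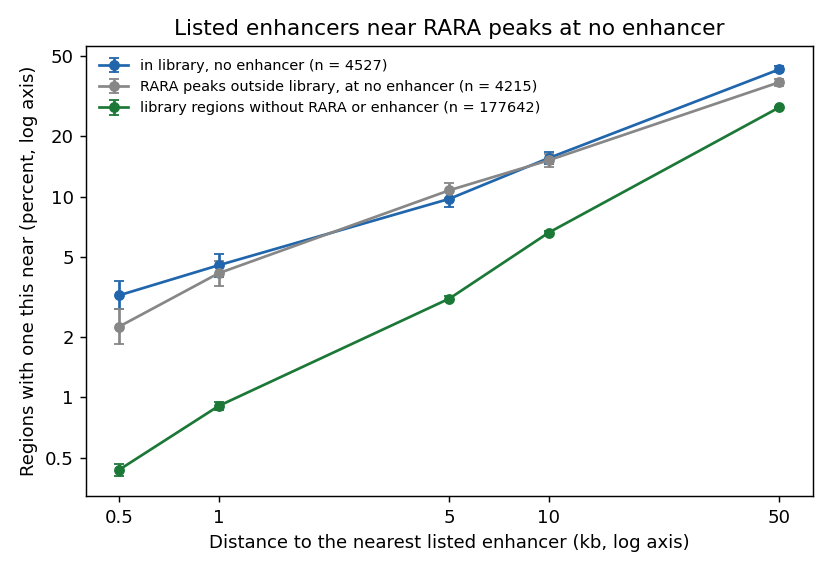
Share (percent, log axis) of regions with a listed enhancer within 0.5, 1, 5, 10 and 50 kb (log axis), with 95% Wilson intervals, for silent RARA peaks, RARA peaks outside the library at no enhancer, and library regions with neither. At 5 kb the values are 9.74%, 10.7% and 3.11%.

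The gap to an enhancer is a measure the rule used, since a peak that touches an enhancer is not a member, and the strong silent peaks were wider (median 442 bp in the highest quintile of RARA fold, 210 bp in the lowest). The part of width in the following shares was not tested. Within 500 bp of an enhancer were 51 of 980 silent peaks in the lowest quintile of RARA fold (5.20%, 3.98 to 6.78%) and 14 of 906 in the highest (1.55%, 0.923 to 2.58%). Within 5 kb the shares were 12.96% (11.0 to 15.2%) and 7.40% (5.87 to 9.28%). In the 96 silent peaks whose library region also held an enhancer, the median gap was 86.5 bp. Their median RARA fold was 2.86 (2.73 to 2.98), below that of all silent peaks, and the median library fold was 13.4.

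On the enhancer side, the silent peaks at the edge of the rule had low RARA folds. The silent peak chr1:173200219-173200400 (2.32-fold) abutted an mESC enhancer, chr1:173200401-173200772, without sharing a base. The next nearest were chr18:90749229-90749697 (3.23-fold, 1 bp away), chr9:108241651-108242211 (2.93-fold, 2 bp), chr9:61761894-61762302 (2.91-fold, 2 bp) and chr16:31327154-31327332 (2.40-fold, 2 bp). Just outside the rule, chr11:19747792-19747950 (2.94-fold) shared 3 bp with an mESC enhancer. Gaps of at most 10 bp were found in 12 silent peaks (folds from 2.32 to 3.33, median 2.93). Overlaps of at most 10 bp with an enhancer were found in 4 others (2.85 to 3.79, median 3.36). On the library side, chr5:77787239-77787438 (2.65-fold) was silent through 1 shared base, while chr8:87371526-87372392 (4.70-fold) abutted a library region and counted as outside. Overlaps of at most 10 bp made 39 silent peaks, with folds from 2.07 to 7.53 and a median of 2.83. Another 46 peaks missed the library by at most 10 bp, with folds from 1.58 to 10.1 and a median of 2.74.

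Silent peaks lay on all 19 autosomes and the X chromosome. Relative to the library they were most frequent on chromosome 17, with 30.9 per 1000 library regions, and chromosome 4, with 30.4, and least frequent on chromosome 14, with 14.8, and the X, with 12.8. The whole library had 4527 silent peaks to 186959 regions. All RARA peaks in library DNA had the same extremes. They numbered 298 to 8246 library regions on chromosome 17 and 452 to 12675 on chromosome 4. On chromosome 14 they numbered 129 to 6606, and on the X 45 to 2576. The share of RARA peaks in library DNA that were silent ran from 73.3% on the X (33 of 45; 59.0 to 84.0%) and 76.0% on chromosome 14 to 87.1% on chromosome 12. The intervals of the X and of chromosome 12 (81.3 to 91.3%) overlapped. Another RARA peak of any class lay within 5 kb of 28.0% of silent peaks (26.7 to 29.3%), of 32.6% (29.6 to 35.8%) of those at enhancers and of 37.4% (36.0 to 38.9%) of those outside the library.

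The silent peaks were crowded at a few places, where RARA peaks of the other classes lay too. They occupied 1351 windows of 1 Mb, with a median of 2 and a maximum of 30 to a window. The fullest, chr13:23000001-24000000, held 30 silent peaks with a median RARA fold of 5.90 (range 1.99 to 11.2), 2 RARA peaks at an enhancer and 17 outside the library. On the same chromosome, chr13:21000001-22000000 held 24, among 40 RARA peaks, with a median of 6.18. In these 2 windows 16 and 13 silent peaks were in the top decile of RARA fold. The window chr3:96000001-97000000 held 25, among 48 RARA peaks, with a median of 3.74 and 4 in the top decile. Silent peaks made 30 of 49, 24 of 40 and 25 of 48 RARA peaks in these windows, against 46.4% of all RARA peaks. The windows were picked for their number of silent peaks, which favours a high silent share. These counts alone therefore do not set the silent peaks apart from the other classes. Mouse chromosomes 13 and 3 are known to carry clusters of replication-dependent histone genes, but genes were not matched to these positions here. A contrast was seen on chromosome 4, where 2 adjoining windows, from 145000001 to 147000000, held 23 and 22 silent peaks of low fold (medians 2.20 and 2.31) and none in the top decile. There, 80 of 104 and 93 of 118 RARA peaks lay outside the library, and the next RARA peak was a median of 1347 and 1178.5 bp from a silent one.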

How the data were processed

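Peak lists from 1 RARA ChIP library, 1 plasmid library and merged reporter samples (3 with LIF, 3 with RA) were used. The submitters' processing notes name mm9 as the build, MACS2 and Bowtie2 among the tools, and also deepTools, SAMtools and UMI-tools, with settings and roles not given in the sources used here. In the deposited lists the authors gave each peak a fold enrichment at the summit (a ratio), a −log10 q and a summit offset. The names show calls on merged replicates for the enhancer lists. For the RARA and library calls, the control was not given in the sources used here. Read depth is unknown, which leaves each peak's value without an error.

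Of rows with the same region, the one with the highest −log10 q was kept and gave fold and summit. This left 9757 of 11366 RARA rows and 186959 of 195417 library rows. Overlap meant at least 1 shared bp. Where a peak touched several library regions, the one of highest fold gave the library fold, and the nearest summit gave the distance. Coordinates are mm9, counted from 1. Named are the 10 silent peaks of highest RARA fold, 5 each by library fold, number of summits and nearness to an enhancer, and the peaks at the edges of the rule. Others are marked as chosen after their values were seen. The members and lists were chosen with earlier results of these data known. The overlap functions were tested on simulated regions. No significance test was made. The reference tables were of another build, so genes and sequences were not analysed here. Tables were made with pandas 2.3.3 and NumPy 2.4.6 in Python 3.11.15, intervals with SciPy 1.17.1, and plots with Matplotlib 3.10.9. Alternatives to the overlap rule, the thresholds and the lists were tried.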

Additional observations from a re-analysis of the deposited data

How the results depend on the processing

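The number of silent peaks was 2412 among the stronger 50% of RARA peaks and stayed within 1.5 times of 4527 under the other alternatives. The silent share, 83.5%, was 81.7% with at least 50% of the peak in library DNA, 81.8% with the RARA summit there, 80.8% and 75.4% with no enhancer within 500 bp and 5 kb, 81.1% among stronger RARA peaks, 79.5% among the stronger 50% of library regions, 82.0% over uncollapsed rows and 81.7% with no enhancer anywhere in the library region, an alternative chosen after seeing the data. The median RARA fold was 3.17 with the summit in library DNA, 3.98 among stronger RARA peaks and 3.06 over uncollapsed rows. The difference from peaks at enhancers, -0.277, was -0.169 and -0.0955 with no enhancer within 500 bp and 5 kb, and -0.109 over uncollapsed rows. It kept its sign under every alternative run, including the list of mESC enhancers alone and the lists without chromosomes 4 and 13. Some shifts follow from the settings themselves. Keeping only the stronger RARA peaks had to lower the number and raise the median fold. Counting peaks near an enhancer with the enhancers had to lower the silent share. The causes of the other shifts were not tested. The deposited lists give no value per replicate, so leaving out a replicate could not be run.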

Other observations

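Some enhancers next to silent peaks overlapped a different RARA peak. Counted over entries of the 3 lists, in which an enhancer on several lists counts more than once, 1084 of 5657 overlapped a RARA peak (19.2%, 18.2 to 20.2%). Of the 397 entries that were the nearest to a silent peak within 5 kb, 148 did (37.3%, 32.7 to 42.1%). Of the 202 within 1 kb, 64 did (31.7%, 25.7 to 38.4%). Of the 143 within 500 bp, 36 did (25.2%, 18.8 to 32.9%). These 3 sets are nested, and their entries were chosen as near a RARA peak. RARA peaks lay near each other as well, with another within 5 kb of 28.0% of silent peaks. The choice thus favours a higher share than over all entries, and the difference was not tested. An RA-induced enhancer lay within 5 kb of 45 silent peaks (0.994%), whose median RARA fold was 3.14, as over all silent peaks. For the 23 within 1 kb and the 14 within 500 bp the median was 2.94 and 2.93. Among library regions with neither RARA nor an enhancer, 0.212% had an RA-induced enhancer within 5 kb. Within 50 kb the shares were 5.77% (5.12 to 6.48%) and 2.65%. By quintile of RARA fold, the share of silent peaks with an RA-induced enhancer within 50 kb ran between 5.43 and 6.30%, with no order from weak to strong.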
